A study of Oryza sativa with 24 samples.

Results

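The heat shock factors and heat shock proteins of rice (Oryza sativa, cultivar Nipponbare) were followed through 24 arrays of excised roots and leaves. A gene was a member if a name or synonym of it, in the array's probe-to-gene annotation or in a RefSeq gene table of assembly ASM3414082v1, started with OsHsf, with HSF plus a letter or number, or with HSP plus a number. Of 49 genes with such a name, 43 had a probe set assigned to 1 gene, out of 17905 genes with such probe sets. The 43 members are 20 factors, 19 small heat shock proteins (a number in the name below 40) and 4 large chaperones, namely HSP101, HSP81-1, HSP81-2 and HSP81-3. No probe set was assigned to the factors OsHsf-16, OsHsf-17 and OsHsf-22 or to the small proteins HSP16.9C, OsHsp18.9 and OsHsp19.0. The members had 64 probe sets, and each of the 14 genes with several was represented by its brightest.

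Whole roots, or the third leaf cut off at the lamina joint, came from hydroponic seedlings 2 weeks old and went straight into water at 30 °C. The water held 0.1% dimethylsulfoxide (DMSO, the solvent) alone, or with 5 µM trans-zeatin (tZ, an active cytokinin), and organs were collected at 30 or 120 min. This gave 8 groups of 3 arrays, which share the cutting, the dipping and the solvent, and no intact, time 0 or heated organ was among them. Each group is therefore a model of detached organs in water, and each array is a mixture of all cells of an organ.

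Heat shock factors are transcription factors that bind heat shock elements in promoters and switch on chaperone genes when proteins unfold. Plants have many of them. Class A holds activators, class B mostly lacks the activation domain and several of its members repress, and class C is less well known. Small heat shock proteins hold unfolding proteins in a soluble state without using ATP, HSP90 (named HSP81 in rice) matures signalling proteins, and HSP101 pulls proteins out of aggregates. In unstressed leaves and roots many small heat shock genes are weakly transcribed, while HSP90 genes are transcribed at all times.

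The median signal of an array was 68.2 to 86.7 for root RNA and 47.6 to 57.0 for leaf RNA, and the number of arrays limits the precision. Signals are the authors' scaled linear intensities, and changes are differences of log2(signal + 20). A gene was called when limma's adjusted p, over all probe sets tested, was below 0.05, and all adjusted p-values below come from these limma fits. A probe set was tested in an organ if its mean there lay above the 40th percentile. In root 40 members were tested and in leaf 41. OsHsp16.0 was tested in neither organ, OsHsf-18 and OsHsf-21 failed only in root, and OsHsp26.7 failed only in leaf. Signals of different probe sets are not comparable, so levels are compared within a probe set. In these whole-organ samples fewer cells of a type and less RNA per cell cannot be told apart.

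The labels were checked before the members were read. A tissue entry of root stands on each of the 24 samples, also on those titled leaf, and the titles were followed. In DMSO at 30 min the leaf gene LFNR1, a ferredoxin-NADP reductase, read 15652 ± 667 in leaf and 136 ± 8.87 in root (mean ± SD, n = 3). The root endodermis gene OsCASP1 read 15.9 ± 0.551 in leaf and 2227 ± 152 in root. The treatment labels fared less well. Type-A response regulators are induced by cytokinin, yet in both organs the lowest DMSO 120 min array exceeded the highest tZ 30 min array for all 5 of those read (OsRR9, OsRR6, OsRR4, OsRR2 and OsRR1). Every tZ array exceeded every DMSO array for 4 of the 5 at 30 min and 2 of the 5 at 120 min in root, and for 2 and 4 in leaf. The treatment of these arrays is therefore given as the arrays are labelled. For the counts and, at the end, for the members, tZ 120 min against DMSO 30 min is given too. That comparison uses neither of the groups in doubt, but it joins treatment and time, which cannot be told apart in it. Low-oxygen genes moved with the tZ label as well. PDC1, a pyruvate decarboxylase of fermentation, read 22479 ± 904 in root under tZ at 30 min and 178 ± 4.25 under DMSO. Its root values at 120 min were 16149 ± 2910.2 and 95.4 ± 15.1. In leaf the alcohol dehydrogenase Adh2 read 13147 ± 97.5 and 84.8 ± 10.1 at 30 min. PDC1, Adh2 and the haemoglobin NSHB2 were higher in every tZ array than in every DMSO array of the same time, in both organs. Their part in the changes of the members below was not tested.

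Under the tZ label the members divided into a few that moved alike in both organs and many that moved in 1 organ. Of the 39 members tested in all 4 comparisons of tZ with DMSO (2 organs at 2 times), 5 were higher throughout. These were OsHsf-03, OsHsf-06, OsHsf-25, OsHsp17.9B and OsHsp18.8. Another 3 were lower throughout, OsHsf-08, OsHsf-23 and OsHsp26.2. For OsHsf-25 and OsHsf-08 this holds for the brightest probe set and not for the other. The share of all probe sets called alike in all 4 is not given here, so these counts have no background. In root, small proteins were more often higher than lower at 30 min, when the factors were divided, and at 120 min it was the factors that were mostly higher. In leaf most called factors were lower and the called HSP90 genes were higher.

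In root at 30 min, 15 of 40 tested members were higher and 9 lower under tZ. Among all probe sets tested, 13.9% were higher and 19.9% lower. The factors held 6 higher and 5 lower of 18, the small proteins 9 and 3 of 18, and the large chaperones 0 and 1 of 4. At 120 min, 12 members were higher and 6 lower, where 11.4% of all probe sets were higher and 18.9% lower. The factors then held 7 and 2, the small proteins 5 and 3, and the large chaperones 0 and 1. Their median changes in root at 30 min were 0.11 for factors, 0.38 for small proteins and -0.05 for large chaperones, and the median over all probe sets was -0.04. For tZ at 120 min against DMSO at 30 min, 7 members were higher and 7 lower, against 11.7% and 17.7% of all probe sets. The factors held 4 higher and 3 lower, the small proteins 3 and 3, and the large chaperones 0 and 1.

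In leaf at 30 min, 11 of 41 tested members were higher and 14 lower, against 23.7% and 21.8% of all probe sets. The share that was higher was near that background. Lower calls went to 9 of 20 factors and 5 of 17 small proteins, and higher calls to 4 factors, 5 small proteins and 2 of 4 large chaperones. At 120 min the members counted 11 higher and 15 lower, against 22.0% and 21.4%. The factors then held 4 higher and 10 lower, the small proteins 4 and 5, and the large chaperones 3 and 0. Median changes of the factors were -0.40 at 30 min and -0.18 at 120 min, beside 0.03 and 0.03 over all probe sets. For tZ at 120 min against DMSO at 30 min, 9 members were higher and 17 lower, against 23.4% and 22.2%, and 10 of the 17 were factors.

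**Figure D1:**
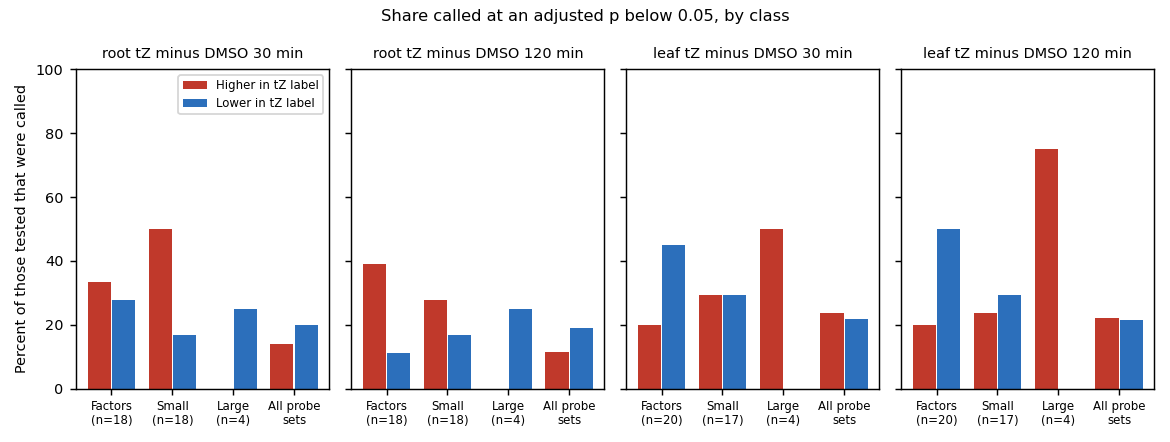
Percent of tested members called higher (red) or lower (blue) under the tZ label, by class, beside the same for all probe sets tested, in root and leaf at 30 and 120 min; n is the number of members tested. In leaf 9 of 20 factors at 30 min and 10 of 20 at 120 min were lower, where 21.8% and 21.4% of all probe sets were.

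**Figure D2:**
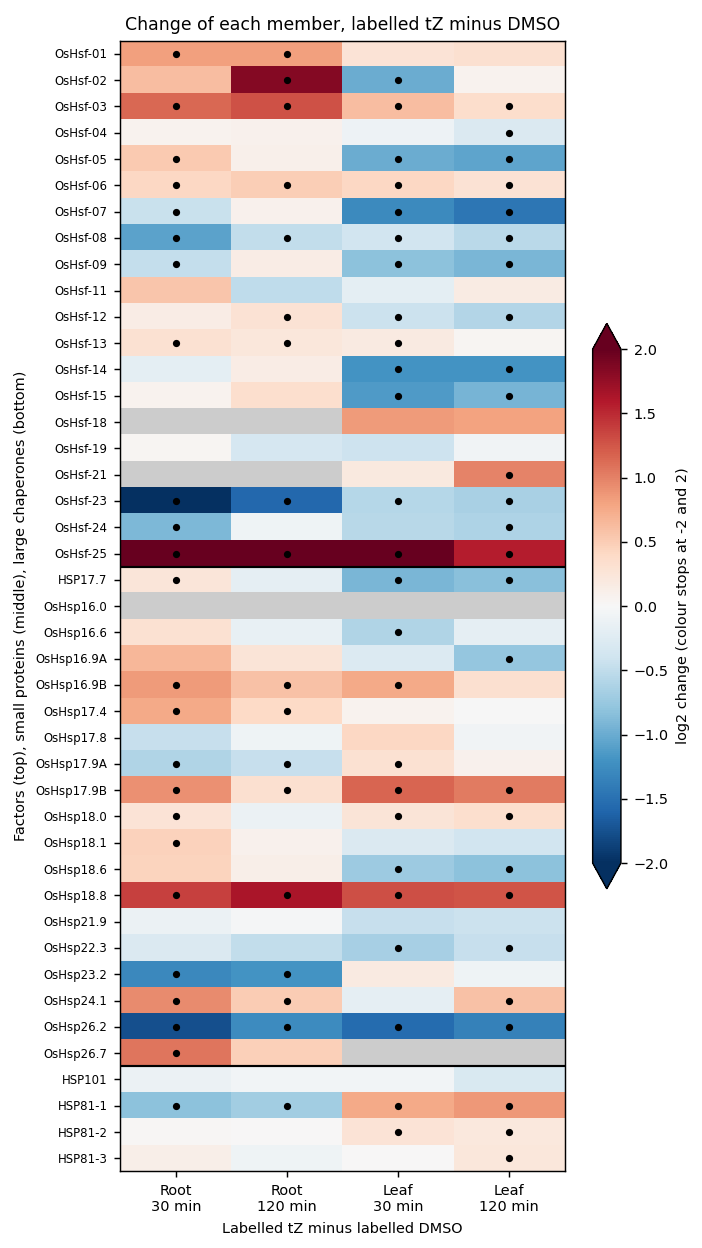
Change of every member (rows) in the 4 comparisons of tZ with DMSO (columns), as log2 change in colour, red for higher under tZ and blue for lower; black dots mark calls at an adjusted p below 0.05 and grey cells were not tested. The 5 members higher throughout and the 3 lower throughout carry a dot in all 4 columns.

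Among the class A factors, OsHsf-25 (HSFA2C) had the largest rise of any member in each of these 4 comparisons. In root its brightest probe set, Os.4766.1.S1_at, read 461, 334 and 515 in the 3 DMSO arrays at 30 min and 6680.2, 7290.2 and 7156 in the tZ arrays. At 120 min the DMSO arrays read 563, 692 and 492 and the tZ arrays 4747, 3381 and 4879. Every tZ array stood far above every DMSO array. The log2 change was 3.97 (SE 0.16, adjusted p = 2.01e-11) at 30 min and 2.85 (SE 0.16, adjusted p = 1.34e-09) at 120 min, and the difference between those changes, -1.12 (SE 0.22, adjusted p = 0.00992), was called. In leaf the same probe set rose from 298 ± 36.4 to 1758 ± 206 at 30 min and from 297 ± 18.8 to 922 ± 70.3 at 120 min, by 2.49 and 1.57. Leaf minus root, the difference of these changes was -1.49 at 30 min (adjusted p = 2.86e-06) and -1.28 at 120 min (adjusted p = 2.22e-05).

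The other probe set assigned to OsHsf-25, Os.10942.1.S1_a_at, gave a different picture. In root it read 95.9, 131 and 112 under DMSO at 30 min and 121, 234 and 206 under tZ, which overlap, with a change of 0.60 (SE 0.25, adjusted p = 0.0789). In leaf at 30 min it read 281, 243 and 303 under DMSO and 169, 162 and 226 under tZ. It fell there, with a change of -0.53 (SE 0.17, adjusted p = 0.0153), and again at 120 min, with -0.62 (SE 0.17, adjusted p = 0.00655). The 2 probe sets of OsHsf-25 were thus called in opposite directions in leaf. The gene table lists for this entry, beside HSFA2C, the names ARD1, IDI1 and SIP2, which denote an acireductone dioxygenase of methionine recycling. The dimmer probe set is 1 of 11 factor probe sets whose source record numbers differ from each other exactly as the rHsf numbers among their gene names do, and the brightest is not among those 11. The brightest probe sets of OsHsf-08, OsHsf-14, OsHsf-19 and OsHsf-21 are not among them either, so this is not particular to OsHsf-25. Which transcript the brightest OsHsf-25 probe set reads is not stated in the tables, and its rise is given here as that of a probe set annotated to OsHsf-25.

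OsHsf-08 (HSFA2D) had the same doubt, since its entry also carries the names ARD2 and SIP2A. Its brightest probe set, Os.2217.1.S1_a_at, read 11929, 12978 and 13048 in root under DMSO at 30 min and 5713, 6553 and 5845 under tZ, without overlap. The change was -1.07 (adjusted p = 1.66e-08), and at 120 min -0.49 (adjusted p = 1.07e-04). The dimmer probe set, Os.40021.1.S1_a_at, stayed between 29.0 and 99.0 in all 12 root arrays and was called in root at neither time. In leaf both fell at both times. The dimmer one read 272, 292 and 236 under DMSO at 30 min and 87.1, 153 and 134 under tZ, a change of -1.01 (SE 0.17, adjusted p = 1.10e-04). Without OsHsf-08 and OsHsf-25 the factors held 5 higher and 4 lower of 16 in root at 30 min and 3 higher and 8 lower of 18 in leaf.

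**Figure D3:**
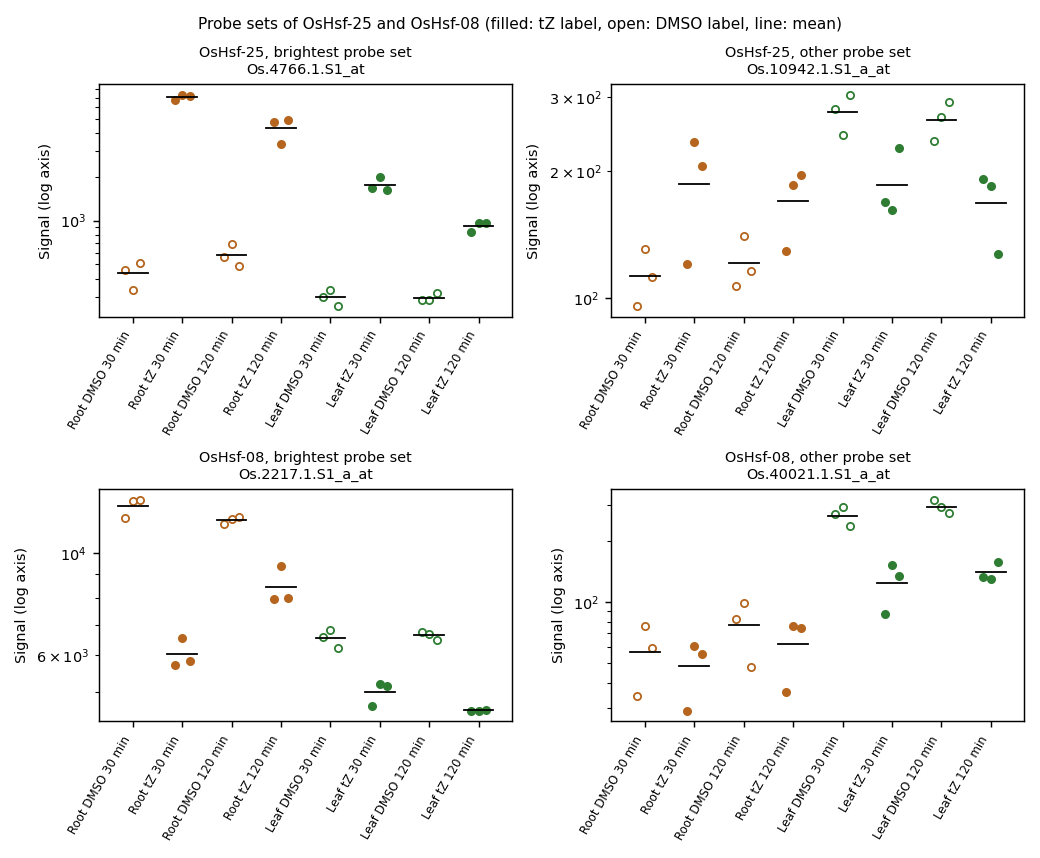
Signal (log axis) of the brightest (left) and the other (right) probe set assigned to OsHsf-25 (top) and OsHsf-08 (bottom) in each of the 24 arrays, filled for the tZ label and open for DMSO, with the mean of 3 as a line. The brightest OsHsf-25 probe set is higher in every tZ array, while the other is lower under tZ in leaf.

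Of the 12 class A factors, 11 were tested in root, with 4 higher and 3 lower at 30 min and 5 and 1 at 120 min. All 12 were tested in leaf, with 3 higher and 5 lower at 30 min and 2 and 6 at 120 min. At 30 min in leaf 23.7% of all probe sets were higher, near the 3 of 12, and 21.8% were lower. At 120 min in leaf these shares were 22.0% and 21.4%. In root they were 13.9% and 19.9% at 30 min and 11.4% and 18.9% at 120 min. OsHsf-07 (HSFA3, in Arabidopsis a target of the factor DREB2A) was the factor that fell most in leaf. It read 3659, 3879 and 3998 under DMSO at 30 min and 1430.0, 1726 and 1578 under tZ, and at 120 min 4179.7, 3999.5 and 4002 and 1417, 1599.6 and 1441. The groups lay far apart at both times. The changes were -1.28 (SE 0.07, adjusted p = 1.76e-10) and -1.44 (SE 0.07, adjusted p = 5.06e-11). In root it was lower at 30 min, at -0.45 (adjusted p = 1.73e-04) and at 120 min its change was 0.09 (adjusted p = 0.445), and the 2 root changes differed by 0.54 (adjusted p = 0.00907). Subtracting the root change from the leaf change gave -0.83 at 30 min and -1.53 at 120 min, both called.

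OsHsf-15 (HSFA4D), the gene known as SPL7 from the spotted-leaf mutant whose leaves form lesions, was high in leaf under DMSO. The leaf arrays read 3560.0, 3526 and 3681 under DMSO at 30 min and 1609.8, 1515 and 1752 under tZ. The root arrays of the same groups read 504, 457 and 329 and 601, 279 and 516, and these overlapped. Leaf exceeded root under DMSO by 3.02 (SE 0.19, adjusted p = 4.80e-13). In leaf the change under tZ was -1.14 (SE 0.06, adjusted p = 1.61e-10) at 30 min and -0.93 (SE 0.06, adjusted p = 2.32e-09) at 120 min, and in root no difference was called. Between the organs these changes differed, leaf minus root, by -1.20 at 30 min and -1.26 at 120 min, both called. It was also the single member called between DMSO arrays of 120 and 30 min in leaf, at -0.27 (adjusted p = 0.0401), a call lost when any 1 of the 6 arrays was left out.

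OsHsf-09 (HSFA9, of a class known from seeds in Arabidopsis and sunflower) and OsHsf-12 (HSFA2E) fell in leaf at both times. OsHsf-09 went from 4942 ± 268 to 2781 ± 257 at 30 min and OsHsf-12 from 2275 ± 117 to 1687 ± 20.1, changes of -0.83 (SE 0.07, adjusted p = 4.13e-08) and -0.43 (SE 0.06, adjusted p = 6.42e-06). In root OsHsf-09 was lower at 30 min (-0.48, adjusted p = 0.00110) and not called at 120 min, whereas OsHsf-12 was called higher at 120 min (0.28, adjusted p = 0.0185). That last call was lost in 4 of 6 fits that left out 1 array. OsHsf-06 (HSFA5) was higher in all 4 comparisons, by 0.29 to 0.49, and in root at 30 min it rose from 532 ± 29.9 to 715 ± 64.2. Leaving out tZ array 1 in root at 30 min ended that call, and the leaf call at 120 min was lost in 3 of 6 such fits. OsHsf-13 (HSFA1, of the class that starts the heat response in Arabidopsis and tomato) rose by 0.30 in root at 30 min (adjusted p = 0.00469). It was also called higher in root at 120 min and in leaf at 30 min. OsHsf-01 (HSFA6B) was called higher in root at both times (0.81 and 0.82), and these calls were lost in 5 and 4 of 6 fits without 1 array. OsHsf-04 (HSFA4B) was called lower in leaf at 120 min alone, at -0.30 (adjusted p = 0.00357). OsHsf-11 (HSFA2A) and OsHsf-18 (HSFA2B) were near the dim end and were called in no comparison of tZ with DMSO.

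Of the 5 class B factors, the 4 tested in root had 2 lower and 0 higher at 30 min, and 1 lower and 0 higher at 120 min. In leaf 2 of 5 were lower and 0 higher at 30 min, and 3 were lower and 1 higher at 120 min. Of all probe sets, 19.9% and 18.9% were lower in root at 30 and 120 min. In leaf 21.8% and 21.4% were lower, and 22.0% were higher at 120 min. OsHsf-23 (HSFB1, whose Arabidopsis counterpart is a repressor) fell most of all members in root. It read 6114, 5709 and 5494 under DMSO at 30 min and 1649, 1133 and 1218 under tZ. At 120 min it read 5172, 4418 and 4873 and 1208, 2991 and 1132. All tZ arrays lay below all DMSO arrays, and tZ array 2 at 120 min lay well above its 2 replicates. Changes were -2.12 (SE 0.25, adjusted p = 6.61e-06) and -1.58 (SE 0.25, adjusted p = 1.81e-04). In leaf it changed by -0.57 and -0.65, from 3412 ± 104 to 2284 ± 72.8 at 30 min. The leaf change minus the root change was 1.54 at 30 min (adjusted p = 1.58e-04). At 120 min that difference was 0.93 (adjusted p = 0.0144) and lost its call without root tZ array 1 or 3.

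OsHsf-14 (HSFB2A) changed in leaf, where it read 433, 395 and 415 under DMSO and 173, 174 and 163 under tZ at 30 min. The change was -1.19 (SE 0.12, adjusted p = 2.97e-07), and -1.20 at 120 min, and its other probe set was called lower at both times too. In root it was called at neither time, and the leaf change minus the root change, -1.35 (SE 0.58, adjusted p = 0.0755) at 120 min, was not called. OsHsf-24 (HSFB2C) was lower in root under tZ at 30 min, where DMSO read 571, 494 and 563 and tZ 270.5, 281 and 294. The DMSO arrays at 120 min had fallen to 314, 212 and 272, so that DMSO itself changed by -0.99 (SE 0.17, adjusted p = 0.00204). Neither of its other 2 probe sets was called in root at 30 min. OsHsf-19 (HSFB4B) was not called in either organ. The dim OsHsf-21 (HSFB2B) was called higher in leaf at 120 min, and that call was lost in 5 of 6 fits without 1 array.

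The 3 class C factors differed from each other. OsHsf-03 (HSFC1B) was higher under tZ in both organs. In root it read 467, 401 and 524 under DMSO at 30 min and 1078, 923 and 1137 under tZ, and at 120 min 589.6, 587 and 533 and 1608, 1232 and 1392. In leaf it read 4564, 4698 and 4996 and 6709, 7294 and 7853 at 30 min, and 4698, 4709 and 4784 and 6025, 6079 and 6018 at 120 min. No DMSO array reached a tZ array of its time. Root changes were 1.14 (SE 0.12, adjusted p = 2.05e-06) and 1.27 (SE 0.12, adjusted p = 1.00e-06), and leaf changes 0.61 (SE 0.06, adjusted p = 9.89e-08) and 0.35 (SE 0.06, adjusted p = 6.00e-05). The leaf change minus the root change was -0.53 at 30 min and -0.92 at 120 min, both called, and its leaf level under DMSO was 10.3 times the root level.

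OsHsf-05 (HSFC2A) went in opposite directions. Root read 434, 348 and 278 under DMSO and 518, 531 and 481 under tZ at 30 min, and leaf 158, 129.5 and 114 and 48.5, 65.4 and 58.3. The groups were apart in both organs, with tZ above in root and below in leaf. Changes were 0.53 (SE 0.16, adjusted p = 0.0160) and -0.99 (SE 0.21, adjusted p = 9.21e-04), and they differed by -1.51 (adjusted p = 3.46e-05). The root call was lost without DMSO array 3 or tZ array 2, and at 120 min the root change was 0.10 (adjusted p = 0.708). OsHsf-02 (HSFC1A) was dim and variable. In root at 120 min it read 8.20, 17.4 and 63.5 under DMSO and 137, 162 and 119.9 under tZ, a change of 1.83 (SE 0.45, adjusted p = 0.00489). In leaf at 30 min it was called lower (-0.99), and that call was lost in 4 of 6 fits without 1 array.

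**Figure D4:**
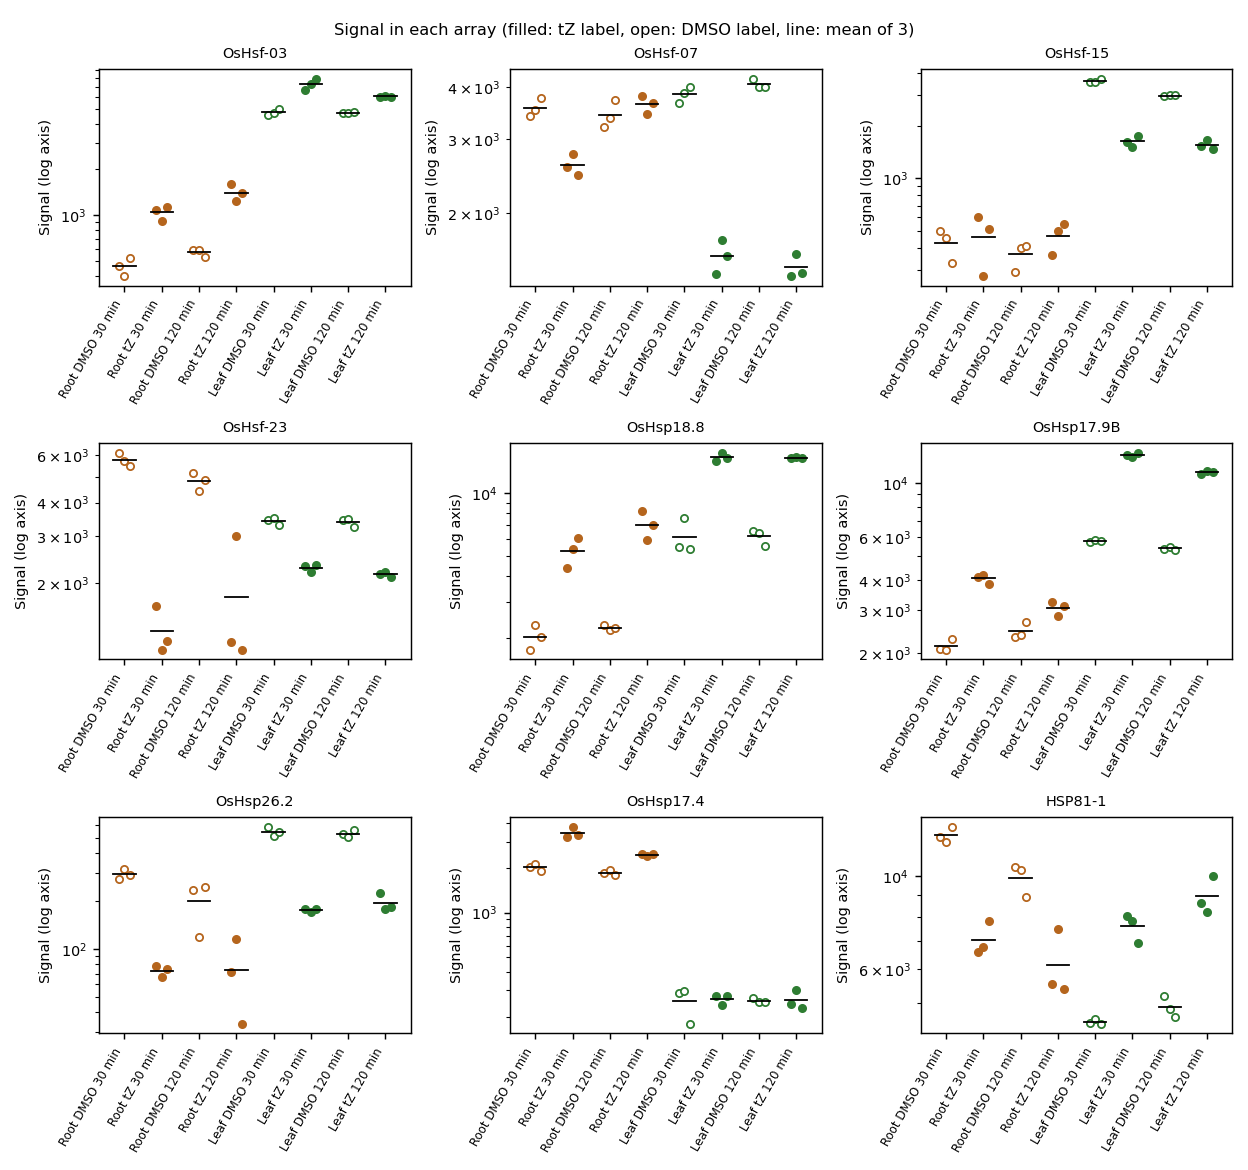
Signal (log axis) of 4 factors, 4 small heat shock proteins and HSP81-1 in each of the 24 arrays, filled for the tZ label and open for DMSO, brown for root and green for leaf, with the mean of 3 as a line. OsHsf-07 and OsHsf-15 fall under tZ in leaf, OsHsp18.8 and OsHsp17.9B rise in both organs, and HSP81-1 falls in root and rises in leaf.

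Small heat shock proteins were higher more often than lower in root at 30 min, and OsHsp18.8 rose most in both organs. It read 1756, 2307 and 2029.6 in root under DMSO at 30 min and 4369.5, 5383 and 6075 under tZ. At 120 min it read 2306, 2189.8 and 2240.2 and 8177, 5934 and 7064. In leaf at 30 min it read 5479, 7605 and 5399 and 14396, 15633 and 14792. All tZ arrays were above all DMSO arrays of the same organ and time. Root changes were 1.36 (SE 0.13, adjusted p = 4.45e-07) and 1.63 (SE 0.13, adjusted p = 8.26e-08), and leaf changes 1.29 and 1.26. Between the organs the change differed by -0.07 at 30 min (SE 0.18, adjusted p = 0.802), which does not show that the responses were equal. Its probe set, Os.49631.2.S1_x_at, carries the suffix of sets that may also read related transcripts.

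OsHsp17.9B was the other small protein higher in all 4 comparisons. Leaf arrays read 5745, 5863 and 5787 under DMSO at 30 min and 13058, 12813 and 13262 under tZ. Root arrays read 2094, 2071 and 2289 and 4108, 4202 and 3868. The replicate spread was small beside the step. Changes at 30 min were 1.17 (SE 0.04, adjusted p = 5.62e-13) in leaf and 0.91 (SE 0.08, adjusted p = 1.68e-07) in root. At 120 min the leaf change was 1.04 and the root change 0.32, and the root change at 120 min minus that at 30 min was -0.59 (adjusted p = 0.00635). In the gene table OsHsp16.6, OsHsp17.9B, HSP16.9C, OsHsp16.9A and OsHsp16.9B follow each other with no gene between. OsHsp16.9B rose at 30 min, in root from 162 ± 27.1 to 309.8 ± 44.6 and in leaf from 126 ± 11.5 to 227 ± 15.9, both called. OsHsp16.6 was called lower in leaf at 30 min (-0.61), and that call was lost in 5 of 6 fits without 1 array. OsHsp16.9A was lower in leaf at 120 min, at -0.78 (adjusted p = 5.61e-04) and not called in root. The table lists the name 16.9B under the OsHsp16.9A entry as well, so these 2 may be confused.

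Another run of adjacent genes, OsHsp17.4, OsHsp18.1 and HSP17.7, was higher in root under tZ at 30 min. These are small proteins of the cytosol. OsHsp17.4 read 2019.6, 2109 and 1913 under DMSO and 3222, 3756 and 3303 under tZ, and OsHsp18.1 read 2783, 2857 and 2942 and 4034, 4196 and 3585. HSP17.7 moved little, from 1541 ± 101 to 1821 ± 76.4. Changes were 0.76 (adjusted p = 6.93e-07), 0.46 (adjusted p = 2.61e-04) and 0.24 (adjusted p = 0.0196), and the last was lost in 3 of 6 fits without 1 array. At 120 min OsHsp17.4 alone of the 3 was called, at 0.39. In leaf, OsHsp17.4 and OsHsp18.1 were called at neither time, and HSP17.7 fell from 288 ± 14.3 to 147 ± 33.4 at 30 min, a change of -0.91 (SE 0.18, adjusted p = 5.26e-04). The leaf change minus the root change at 30 min was -0.69, -0.74 and -1.15 for the 3 in that order, each called. Under DMSO at 30 min all 3 were lower in leaf than in root, at -2.93, -2.94 and -2.34. OsHsp17.9A, with 4 genes between it and OsHsp17.4, went the other way and was lower in root under tZ at 30 min, from 2830.4 ± 258 to 1852 ± 32.4, a change of -0.60 (SE 0.12, adjusted p = 0.00117). It was also lower in DMSO at 120 than at 30 min, at -0.64 (adjusted p = 0.00567), and higher in leaf at 30 min by 0.30 (adjusted p = 0.0133). The leaf call was lost without DMSO array 3 or tZ array 2.

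OsHsp26.2 was the small protein that fell most. In leaf it read 584, 513 and 547 under DMSO at 30 min and 177, 171 and 179 under tZ. In root it read 276, 318 and 291 and 77.9, 66.8 and 74.7. At 120 min in root it read 234, 119 and 244 and 71.8, 116 and 34.0. The tZ arrays were the lower ones each time, with a narrow gap in root at 120 min. Changes in leaf were -1.53 (SE 0.11, adjusted p = 5.21e-09) and -1.36 (SE 0.11, adjusted p = 2.72e-08), and in root -1.76 (SE 0.31, adjusted p = 3.51e-04) and -1.26 (SE 0.31, adjusted p = 0.00591). The only probe set of OsHsp26.2, Os.12234.2.S1_s_at, also has a suffix of sets that may read related transcripts. OsHsp22.3 and OsHsp18.6 fell in leaf at both times and were called at neither in root. OsHsp22.3 went from 671 ± 35.8 to 417 ± 3.93 at 30 min. OsHsp18.6 went from 282 ± 17.7 to 164 ± 21.0, while another probe set of it, Os.49648.1.S1_at, changed by 0.13 (SE 0.24, adjusted p = 0.699). OsHsp18.0 was called higher in leaf at 120 min through its brightest probe set (0.34, adjusted p = 0.00249), and lower through Os.31700.2.S1_s_at, at -0.35 (SE 0.11, adjusted p = 0.0135).

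OsHsp24.1 differed by labelled time as well as by treatment label. Root arrays read 615, 589 and 673 under DMSO at 30 min and 1226, 1223 and 1225 under tZ. At 120 min they read 389, 431 and 411 and 594, 647 and 542. The tZ arrays were about level with DMSO at 30 min by then, and the DMSO arrays were lower. Changes under tZ were 0.95 (SE 0.10, adjusted p = 1.48e-06) and 0.51 (SE 0.10, adjusted p = 8.79e-04), DMSO changed by -0.58 between the times (adjusted p = 0.00211), and tZ at 120 min against DMSO at 30 min gave -0.07 (adjusted p = 0.650). In leaf the change was -0.18 at 30 min, not called, and 0.59 at 120 min, called. At 30 min leaf minus root gave -1.13 (SE 0.17, adjusted p = 1.02e-05) for these changes. OsHsp26.7, a small protein of chloroplasts that was tested in root, read 53.9, 105 and 84.8 under DMSO and 198, 263 and 125 under tZ at 30 min, a change of 1.07 (SE 0.28, adjusted p = 0.00694). OsHsp23.2 was lower under tZ in root, from 228 ± 22.7 to 86.7 ± 38.4 at 30 min. The change was -1.29 (SE 0.35, adjusted p = 0.00984), a call lost without tZ array 2, and at 120 min it was -1.20, a call lost in 4 of 6 fits without 1 array. OsHsp23.2 was not called in leaf. OsHsp17.8 and OsHsp21.9 were called in no comparison of tZ with DMSO.

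Among the large chaperones HSP81-1, a gene of the HSP90 family, moved in opposite directions in the organs. Root arrays read 12406, 12034 and 13075 under DMSO at 30 min and 6606, 6768 and 7831 under tZ, and at 120 min 10483, 10316 and 8940.3 and 5538, 7499.7 and 5393. Leaf arrays read 4480.5, 4564 and 4462 and 8042, 7843 and 6922 at 30 min, and 5199.7, 4837 and 4632 and 8622, 8228 and 10018 at 120 min. No groups overlapped within an organ and time. The root changes were -0.82 (SE 0.11, adjusted p = 1.75e-05) and -0.70 (SE 0.11, adjusted p = 1.26e-04), and the leaf changes 0.75 (SE 0.07, adjusted p = 1.97e-07) and 0.87 (SE 0.07, adjusted p = 3.87e-08). Leaf minus root, the changes differed by 1.57 (SE 0.14, adjusted p = 2.80e-09) at 30 min and 1.57 (SE 0.14, adjusted p = 2.90e-09) at 120 min. Its other probe set, Os.37616.1.S1_at, had the same calls at 30 min, -0.82 (SE 0.30, adjusted p = 0.0483) in root and 1.63 (SE 0.18, adjusted p = 1.14e-06) in leaf, and at 120 min was called in leaf only.

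HSP81-2 and HSP81-3 lie close together, with 2 genes between them. HSP81-2 rose in leaf from 11642 ± 207 to 14038 ± 956 at 30 min, a change of 0.27 (SE 0.06, adjusted p = 9.27e-04), and in root the change was 0.02 (SE 0.07). The brightest probe set of HSP81-3 changed by 0.01 in leaf at 30 min, but 3 dimmer ones were called higher there. Of these, Os.28300.2.S2_a_at changed by 0.58 (SE 0.05, adjusted p = 1.29e-07) in leaf and -0.26 (SE 0.07, adjusted p = 0.0132) in root, and Os.57460.1.S1_x_at by 0.41 (SE 0.06, adjusted p = 1.44e-05) in leaf. At 120 min the brightest was called higher in leaf (0.22, SE 0.07), a call lost without DMSO array 3 or tZ array 2. Os.28300.2.S2_a_at then changed by 0.49 (adjusted p = 1.03e-06) in leaf and -0.33 (adjusted p = 0.00311) in root. Os.57460.1.S1_x_at changed by 0.47 (adjusted p = 3.67e-06) and -0.28 (adjusted p = 0.00358). In root at 120 min the brightest was not called (-0.09), and Os.57460.1.A1_at was called in neither organ. Transcripts of near-identical HSP90 genes can bind the same probes. HSP101 read 217, 233 and 220.4 in root under DMSO at 30 min and 156, 238 and 227 under tZ, which overlap, and was called in no comparison of tZ with DMSO in either organ.

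**Figure D5:**
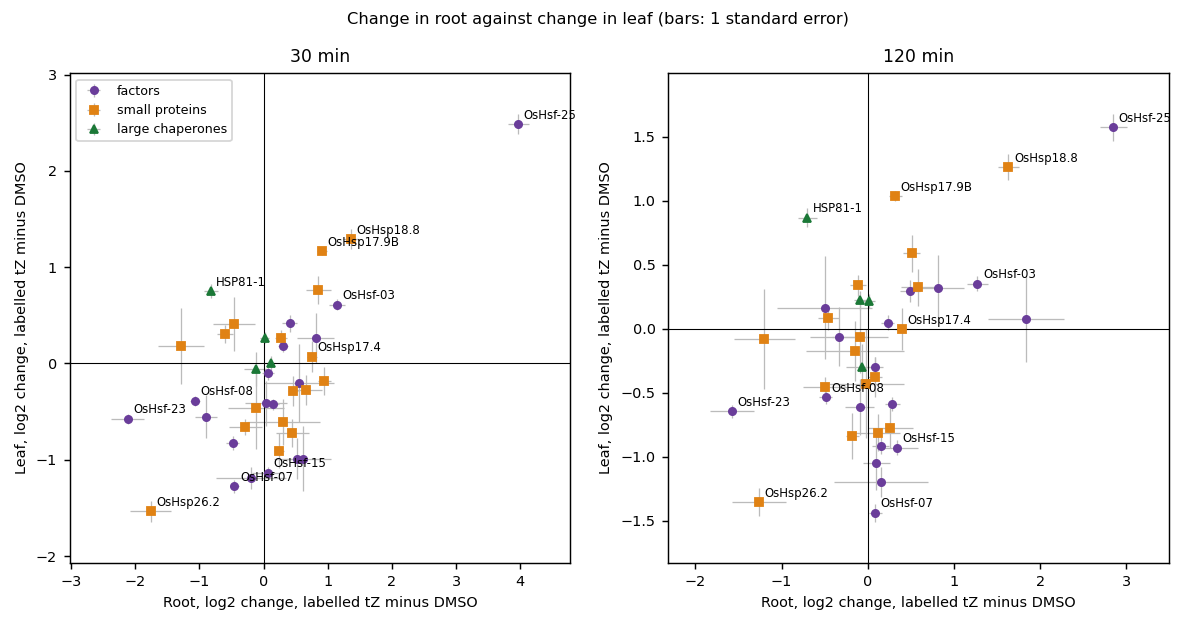
Log2 change under the tZ label in root (horizontal) and leaf (vertical) at 30 min (left) and 120 min (right), 1 point per member tested in both organs, with bars of 1 standard error. HSP81-1 lies upper left, lower in root and higher in leaf, OsHsf-25, OsHsp18.8 and OsHsf-03 lie upper right, and OsHsp26.2 and OsHsf-23 lower left.

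Differences between the labelled times were fewer. Each comparison of times uses a group whose treatment label is in doubt, DMSO at 120 min or tZ at 30 min. Such a comparison may therefore not measure time alone. Between DMSO at 120 and 30 min, 0 members were higher and 3 lower in root (OsHsf-24, OsHsp17.9A and OsHsp24.1), against 3.24% and 2.98% of all probe sets, and 10 of 40 had an unadjusted p below 0.05. In leaf 0 were higher and 1 lower, against 0.708% and 0.694%, and 8 of 41 had an unadjusted p below 0.05. These percentages are of adjusted calls. The share of all probe sets with an unadjusted p below 0.05 is not given here, so the unadjusted counts have no background. Within the tZ label, root members counted 3 higher and 8 lower at 120 min, against 3.65% and 3.09%, and 3 factors were the higher ones (OsHsf-07, OsHsf-08 and OsHsf-09). Of the 8 lower, 7 were small proteins, among them OsHsp24.1 (-1.02), OsHsp17.4 (-0.48), OsHsp18.1 (-0.41) and OsHsp17.9B (-0.40). The OsHsf-09 call was lost in 4 of 6 fits without 1 array, and the OsHsf-25 call, lower at 120 min, in 2. The calls of the other small proteins HSP17.7, OsHsp17.9A and OsHsp18.0 were lost in 6, 5 and 4 of them. When all arrays were shifted to the same median, that split became 5 and 5. In leaf it was 1 higher (OsHsf-02) and 4 lower (OsHsf-25, OsHsf-09, OsHsf-03 and OsHsp17.9B), against 3.80% and 4.21%, and the calls of OsHsf-02 and OsHsf-09 were each lost in 4 of 6 such fits. The tZ change itself differed between 120 and 30 min for 3 members upward and 3 downward in root, against 2.60% and 2.00% (0 calls remained without limma's intensity trend), and for 1 each in leaf, against 2.03% and 1.80%.

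Organ differences were common. Under DMSO at 30 min, 14 of 42 tested members were higher and 18 lower in leaf than in root, against 26.1% and 34.0% of all probe sets. Probe sets were tested here if they passed the filter in at least 1 organ. OsHsp26.7 entered through root only, and OsHsf-18 and OsHsf-21 through leaf only, so the filter itself favours an organ difference for them. The median change of all probe sets was -0.16 on the deposited scale and 0.24 after arrays had been shifted to equal medians, so changes near 0 have no settled direction here. OsHsf-03 (3.31), OsHsf-15 (3.02) and OsHsp22.3 (2.55) were the members furthest above root, and OsHsp18.1, OsHsp17.4 and OsHsp23.2 (-2.58) those furthest below. All 4 large chaperones were lower in leaf, although HSP81-3 turned to slightly higher with arrays shifted to the same median. By mean signal, 8 of the 19 small proteins were highest in root under tZ at 30 min, among them the dim, untested OsHsp16.0. All 4 large chaperones were highest in a root group and lowest in a leaf group. Root arrays had the higher medians, and the same counts over all probe sets are not given here, so this ranking has no background. The signed tZ change, leaf minus root, was above 0 for 7 and below 0 for 14 of 39 members at 30 min, against 21.6% and 15.4%. A difference above 0 can be a lesser fall in leaf, as for OsHsf-23, and one below 0 a deeper fall, as for OsHsf-07. At 120 min this was 6 and 13, against 20.6% and 15.9%, and it became 2 and 17 once arrays were shifted to equal medians. Factors made up 8 of the 14 and 9 of the 13.

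Other chaperone genes of the pathway were read from a list of names, of which 22 had a probe set. Of the 22, 10 matched only because their symbols start with bip, which there does not stand for the chaperone BiP, and this was seen after the list had been made. Of the 12 that are chaperones, cofactors or DREB2 factors by name, 10 were tested. In root 5 were lower at 30 min and 4 at 120 min, and the other 5 and 6 were not called. An unadjusted p below 0.05 was found for 5 and 6 of the 10, counts for which no share over all probe sets is given. In leaf 4 were higher at both times, the chaperone BIP1 and the J-domain partners DJB6, DJC27 and DJC43, and 2 were lower, DJA6 and DREB2A. The leaf share that was lower was near the 21.8% of all probe sets at 30 min, where 23.7% were higher, and in root 19.9% were lower. At 120 min 18.9% of all probe sets were lower in root, and in leaf 22.0% were higher and 21.4% lower. For the full list at 30 min, 1 was higher and 7 lower of 19 tested in root, and 9 and 4 of 20 in leaf. At 30 min BIP1, the main chaperone of the endoplasmic reticulum, went in root from 6804 ± 196 to 3541 ± 54.6 and in leaf from 4317 ± 386 to 6815 ± 142, changes of -0.94 (SE 0.08, adjusted p = 3.02e-07) and 0.66 (SE 0.06, adjusted p = 5.87e-08). DJB6, a J-domain partner of BiP, changed by -0.70 in root and 0.99 in leaf, both called. The direction of BIP1 and DJB6 in each organ was that of HSP81-1. DREB2A, an activator of heat and drought genes, was lower in leaf, at -0.52 (SE 0.10, adjusted p = 3.34e-04), and not called in root.

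Because treatment labels were in doubt, the values for tZ at 120 min against DMSO at 30 min are set beside the others, with which they share arrays. Treatment and time both differ in this comparison, so it does not give the effect of tZ alone. In root they were 3.26 (SE 0.16, adjusted p = 2.94e-10) for OsHsf-25, 1.56 for OsHsf-03, -1.84 for OsHsf-23, 1.78 for OsHsp18.8, -1.84 for OsHsp26.2 and -1.04 for HSP81-1, all called. In leaf they were 1.57 for OsHsf-25, 0.35 for OsHsf-03, -1.36 for OsHsf-07, -1.20 for OsHsf-15, 1.29 for OsHsp18.8, 0.93 for OsHsp17.9B, -1.41 for OsHsp26.2 and 0.98 for HSP81-1, all called. Of the root members called under tZ at 30 or 120 min, 12 of 26 were not called in it, namely HSP17.7, OsHsf-02, OsHsf-05, OsHsf-07, OsHsf-09, OsHsf-12, OsHsf-13, OsHsp16.9B, OsHsp18.0, OsHsp18.1, OsHsp24.1 and OsHsp26.7. In leaf this was so for 6 of 31, namely HSP81-3, OsHsf-02, OsHsf-13, OsHsf-21, OsHsp17.9A and OsHsp24.1, while OsHsp18.1 was called in it alone. The matching shares over all probe sets are not given here, so the counts of 12 of 26 and 6 of 31 have no background.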

How the data were processed

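One-colour rice arrays of 24 RNA samples were used. The authors deposited linear intensity values, 1 per probe set, whose mean after dropping the highest and lowest 2% was 500.07 to 500.08 on every array. How probes were summarised and background was corrected, and in what program, is not given in the sources used here. No depth exists for arrays. Of 57381 probe sets, 187 controls were left out. The annotation gave 22436 of the remaining 57194 1 gene, 95 several and 34663 none, and names were extended through the RefSeq table, which also gave the order of neighbouring genes; no coordinates are printed.

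Values were taken as log2(intensity + 20) and fitted with limma 3.58.1 in R 4.3.3 (lmFit, contrasts, eBayes with an intensity trend). Each organ was fitted with its 4 groups, and comparisons of organs with all 8. In fits of 1 organ, probe sets had to have a mean log2 value above the 40th percentile of that organ. For leaf against root in DMSO they had to pass this in at least 1 organ. For the differences of tZ changes between organs they had to pass it in both. P-values were adjusted by Benjamini-Hochberg over all probe sets tested, and the procedure was tested on simulated data. The labels do not say that arrays of a group came from separate plants, so p-values measure the spread between arrays, which may be technical. Replicates correlated at 0.960 to 0.982. Same-numbered arrays did not deviate together (0 of 28 pairs of groups had every correlation above 0.1).

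The members and lists were chosen with earlier results of these data known. A rule named OsHsf-25, OsHsf-03 and, per class and comparison of treatments or times, up to 3 called members without overlap in each direction, up to 3 per direction over all members for organ and difference comparisons, and 2 of the other list. Members named beyond it were added after their values were seen. Alternatives were pseudocounts of 10 and 40, no filter or the 60th percentile, arrays shifted to the same median or quantile normalized, the mean of a gene's probe sets, no intensity trend, only the groups compared, the replicate number as a block, and each array left out. The other probe set of OsHsf-08 and OsHsf-25, and leaving both genes out, were added after seeing the data. No promoter, protein or probe sequence was used here.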

Additional observations from a re-analysis of the deposited data

Results flagged for a closer look

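The change under the tZ label differed between times or between organs, by the test of the difference itself, for the following members; groups of 3 arrays were not searched for single deviating arrays. In root the change at 120 min minus that at 30 min was 0.63 for OsHsf-09, 0.58 for OsHsf-08, 0.54 for OsHsf-07, -1.12 for OsHsf-25, -0.59 for OsHsp17.9B and -0.42 for HSP17.7. All 6 of these root calls were lost without limma's intensity trend. The HSP17.7 difference lost its call in 8 of 12 fits that left out 1 array, and the OsHsf-09 difference without DMSO array 2 or tZ array 3 of 30 min. In leaf it was 0.77 for OsHsp24.1, a call lost without the trend and in 11 of 12 such fits, and -0.91 for OsHsf-25.

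The leaf change minus the root change at 30 min was 1.57 for HSP81-1, 1.54 for OsHsf-23, 1.47 for OsHsp23.2, -1.60 for OsHsf-02, -1.51 for OsHsf-05 and -1.49 for OsHsf-25. The OsHsp23.2 and OsHsf-02 differences each lost their call in 7 of 12 fits without 1 array. At 120 min it was 1.57 for HSP81-1, 0.93 for OsHsf-23, 0.72 for OsHsp17.9B, -1.76 for OsHsf-02, -1.53 for OsHsf-07 and -1.28 for OsHsf-25. The OsHsf-23 and OsHsf-02 differences each lost their call in 2 of 12 such fits. Values for OsHsf-25 and OsHsf-08 are those of the brightest probe set.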

How the results depend on the processing

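Across the alternatives that kept all arrays, 161 of 176 counts of called members stayed within 1.5 times the reported count, and 2266 of 2402 values of named genes kept direction and call, 118 lost the call and 18 reversed. The counts that moved were all of time comparisons. Root DMSO at 120 against 30 min had 5 calls in place of 3 when only its groups were fitted. Without the intensity trend, root tZ at 120 against 30 min had 6 in place of 11, the root difference of tZ changes 0 in place of 6, and leaf tZ at 120 against 30 min 2 in place of 5. The 1 call of leaf DMSO at 120 against 30 min became 0 with no filter, with arrays shifted to the same median, without the trend, with the replicate number as a block and with any array left out. The 2 calls of the leaf difference of tZ changes became 1 with no filter, the shift, no trend, the block, the mean of probe sets, the other probe set of OsHsf-25 or without it. With an array left out, root tZ at 120 against 30 min had 7 to 11 calls, the root difference 4 to 8, leaf tZ at 120 against 30 min 3 to 5, the leaf difference 1 to 2, root tZ against DMSO 20 to 23 of 24 at 30 min and 12 to 18 at 120 min, and leaf tZ against DMSO 23 to 24 of 25 and 23 to 26. The replicate number as a block gave 24 calls in root and 25 in leaf for tZ against DMSO at 30 min. Besides leaf DMSO at 120 against 30 min and the leaf difference of tZ changes, it moved no count by over 1.5 times.

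The reversals were these. With the other probe set, OsHsf-25 turned to -0.53 and -0.62 for leaf tZ against DMSO at 30 and 120 min, -0.67 for leaf tZ at 120 against DMSO at 30 min and 1.16 for leaf against root (0.32 with the mean of probe sets). OsHsf-08 turned to 0.10 for root tZ at 120 against DMSO at 30 min, -0.075 for the root difference, 1.94 for leaf against root (0.49 with the mean) and -0.85 for the organ difference at 30 min (-0.084 with the mean). Arrays shifted to the same median turned leaf against root to 0.016 for DJB6, 0.026 for HSP81-3 and 0.18 for bip104. The mean of probe sets turned BIPP2C1 to 0.26 and 0.88 in root at 30 and 120 min, 0.44 for root tZ at 120 against DMSO at 30 min and -0.55 for the organ difference. The cause was not tested. The shift moved the median over all probe sets by over 0.1 in 4 comparisons. Dim members such as OsHsf-02, OsHsf-21 and OsHsp23.2 had the widest replicate spread, which limits what could be called for them.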
